A study of Homo sapiens with 13 samples.

Results

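The 10 genes described here are transcribed in response to FGF-ERK signaling and most of their products restrain it: *DUSP4*, *DUSP5* and *DUSP6*, *SPRY1*, *SPRY2* and *SPRY4*, *SPRED1* and *SPRED2*, and *ETV4* and *ETV5*. They were chosen by gene symbol and all 10 were found among the 61546 features of both count tables. RNA-seq was done on a human embryonic stem cell line, RUES2, that carries a GFP::SMAD4 fusion, so that SMAD4, the shared signal transducer of the BMP and TGF-beta pathways, can be followed in living cells. The cells were kept in mTeSR1 medium with ROCK inhibitor (RI), which aids the survival of dissociated stem cells. All values therefore come from 1 engineered line.

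The study holds 13 libraries in 2 experiments, which used different RNA kits and different library preparations. In the time series, cells received 100 ng/mL BMP4 with 5 µM IWP2, which blocks the secretion of Wnt ligands, and RI, and were collected at 0 h (2 libraries) and at 4, 12, 20, 28 and 42 h (1 library each). These libraries were made from total RNA after ribosomal RNA depletion. The labels of the 0 h libraries also name the treatment. In the dose response, poly(A) libraries were made at 5 h from cells given BMP4, IWP2 and RI with LDN-193189 (LDN) at 0, 10, 30, 100 or 300 nM, which inhibits the BMP receptor kinases, and from cells left untreated in mTeSR1, with 1 library per condition. The question addressed is how transcripts taken as a readout of FGF-ERK signaling changed with hours of treatment and with the level of BMP signaling. ERK activity itself was not measured in these libraries. Cells kept without BMP4 for the same hours were not sequenced alongside the later time points. The duration of BMP signaling thus cannot be told apart from hours in IWP2, in RI or in culture.

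FGF ligands bind receptor tyrosine kinases and switch on RAS, RAF, MEK and finally the kinases ERK1 and ERK2. ERK in turn induces genes whose products limit the pathway. The dual-specificity phosphatases DUSP4 and DUSP5 act on ERK in the nucleus and DUSP6 acts on ERK in the cytoplasm, the Sprouty proteins act between the receptor and RAF, and the SPRED proteins hold the RAS inhibitor neurofibromin at the membrane. ETV4 and ETV5 are ETS transcription factors of the PEA3 group that carry FGF signals to target genes. Human embryonic stem cells depend on FGF signaling to stay pluripotent, and mTeSR1 supplies FGF2.

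The stretches upstream of the start sites of *DUSP6*, *SPRY2* and *SPRY4* are shown because *DUSP6* and *SPRY4* moved in opposite directions with LDN dose and *SPRY2* had the sharpest peak of the Sprouty genes over time. RefSeq sequences (GRCh38.p14) of 250 bases that end at the base before the start site were at hand for 6 of the 10 genes, in 10 windows. Each window shown is written 5′ to 3′ on the minus strand, on which these genes lie: *DUSP6* at chr12:89352502-89352751, *SPRY2* at chr13:80341127-80341376 and *SPRY4* at chr5:142324248-142324497. The windows of *DUSP6* and *SPRY2* adjoin the start of the gene as annotated by GENCODE. That of *SPRY4* belongs to a start site inside the annotated gene (chr5:142310427-142326455). Capitals mark CGGAA or its reverse complement TTCCG, the core of many ETS factor sites, and GGCGCC, a GC-rich element known from BMP-responsive promoters, which reads the same on both strands. These motifs were chosen after the sequences were seen.
DUSP6: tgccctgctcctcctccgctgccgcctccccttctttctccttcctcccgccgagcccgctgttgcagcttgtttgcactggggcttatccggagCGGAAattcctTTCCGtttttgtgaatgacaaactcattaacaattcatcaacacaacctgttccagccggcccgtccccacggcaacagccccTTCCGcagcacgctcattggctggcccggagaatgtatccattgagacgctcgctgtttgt
SPRY2: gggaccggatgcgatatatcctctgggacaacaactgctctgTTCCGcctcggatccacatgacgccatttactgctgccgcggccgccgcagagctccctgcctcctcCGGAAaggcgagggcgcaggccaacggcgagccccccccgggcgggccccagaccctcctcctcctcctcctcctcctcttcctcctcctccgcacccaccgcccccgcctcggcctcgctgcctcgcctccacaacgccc
SPRY4: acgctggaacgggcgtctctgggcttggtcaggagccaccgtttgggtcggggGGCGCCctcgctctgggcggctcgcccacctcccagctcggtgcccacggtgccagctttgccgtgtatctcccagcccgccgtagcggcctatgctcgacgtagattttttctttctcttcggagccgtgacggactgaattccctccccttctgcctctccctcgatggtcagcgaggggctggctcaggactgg
The ETS core occurred 3 times upstream of *DUSP6*, 2 times upstream of *SPRY2* and 0 times upstream of *SPRY4*, which held the GC-rich element 1 time. The window of *SPRY2* shown is that of the first of its 3 start sites, and of the other 2 windows, which hold no ETS core, 1 holds GGCGCC 1 time. Of the 10 windows of the 6 genes, 3 held the ETS core (*DUSP6*, *SPRY1* and *SPRY2*) and 3 held GGCGCC (*SPRY2*, *SPRY4* and *SPRED1*). The windows of *SPRED2* held neither. Of 35116 RefSeq windows of this length, 30.3% held the ETS core at least once, 3.08% held it 3 times or more, and 16.4% held GGCGCC. A match is a run of letters and says nothing of binding in these cells.

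Library totals ran from 37957385 to 71333471 counts in the time series and from 15600931 (untreated) to 33989998 in the dose response, and the limit set by 3 counts lay at or under 0.192 CPM (counts divided by the library total, times 1000000) in every library. Mitochondrial transcripts took 7.60% and 4.29% of counts at 0 h and 2.01% to 4.24% later. They took 4.22% to 4.49% with BMP4 at 5 h and 7.90% in the untreated library. The 6 BMP targets measured as a check of the treatment (*ID1* to *ID4*, *SMAD6* and *SMAD7*) were all higher than at 0 h at every later time and all rose with SMAD4 level. Of 3 pluripotency markers, *NANOG* went from 146 and 116 CPM at 0 h to 1.08 CPM at 42 h and *SOX2* from 389 and 375 to 11.6 CPM, while *POU5F1* stayed between 1003 and 1721 CPM. The 4 amnion-like markers *GATA3*, *TFAP2A*, *HAND1* and *ISL1* were at or under 0.505 CPM at 0 h and between 136.7 and 2919 CPM at 42 h. *TBXT*, a marker of primitive streak, stayed at or under 0.294 CPM and *MIXL1* at or under 1.42 CPM. *EOMES*, of the same list, had 0.211 and 0.308 CPM at 0 h, 3.52 CPM at 20 h and 0.294 CPM at 42 h, and was called higher by edgeR at 4, 12, 20 and 28 h (log2 differences 2.28, 3.29, 3.74 and 2.82). Of the endoderm markers, *SOX17* stayed at or under 1.49 CPM, and *FOXA2* had 3.19 and 2.92 CPM at 0 h, 3.97 CPM untreated and at most 0.184 CPM after BMP4. The part of this change of cell state in the values below was not tested. In bulk RNA, fewer cells that express a gene and less of its RNA in each cell cannot be told apart.

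The phosphatase genes took 3 different courses over 42 h. The values after the pair at 0 h are those of the libraries at 4, 12, 20, 28 and 42 h, in this order. *DUSP4* (chr8:29333064-29350684, minus strand) had 6.11 and 8.50 CPM at 0 h and then 4.94, 15.5, 32.6, 14.4 and 4.43 CPM. It thus peaked at 20 h, at 4.47 times the 0 h mean of 7.30 ± 1.69 CPM (SD, n = 2), and ended below both 0 h libraries.

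*DUSP5* (chr10:110497907-110511533, plus strand) had 12.1 and 11.9 CPM at 0 h and then 16.7, 26.3, 31.3, 28.2 and 96.7 CPM. Every later library lay above both 0 h libraries, and the last stood 8.04 times above their mean of 12.0 ± 0.105 CPM (SD, n = 2). *DUSP6* (chr12:89347235-89352501, minus strand), a widely used transcript readout of FGF-ERK activity, had 32.6 and 36.1 CPM at 0 h and then 27.2, 44.2, 68.9, 45.7 and 121.3 CPM. It was below both 0 h libraries at 4 h, above them from 12 h, and had a dip at 28 h between its highest values. An exon of *DUSP6* overlaps an unnamed gene on the opposite strand with up to 18.6 CPM, and how the counting treated strand is not given in the sources used here.

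The Sprouty genes described here separated into a pair that rose to 20 h and 1 that fell. *SPRY2* (chr13:80335976-80341126, minus strand) had 28.5 and 31.2 CPM at 0 h and then 39.9, 62.0, 101.9, 68.9 and 33.3 CPM, a peak of 3.41 times the 0 h mean followed by a return close to it. *SPRY4* (chr5:142310427-142326455, minus strand) had 189 and 143 CPM at 0 h and then 267, 362, 399, 191 and 224 CPM. The peak of *SPRY4* was 2.40 times the 0 h mean of 166 ± 32.5 CPM (SD, n = 2), and its 28 h value was within 2 CPM of the higher 0 h library. *SPRY1* (chr4:123396795-123403760, plus strand) had 27.5 and 24.3 CPM at 0 h and then 24.2, 18.9, 11.1, 4.21 and 4.94 CPM. It was lower at each time up to 28 h, where the 0 h mean was 6.15 times the value.

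Of the genes described here, *SPRED1* and *SPRED2* moved least over the time series. *SPRED1* (chr15:38252836-38357249, plus strand) had 70.6 and 68.5 CPM at 0 h and then 60.2, 65.9, 51.8, 50.7 and 39.5 CPM, all later libraries lying below both 0 h libraries. *SPRED2* (chr2:65310851-65432637, minus strand) had 29.7 and 23.4 CPM at 0 h and between 18.7 (12 h) and 27.0 CPM (20 h) later, so that its later values overlapped those at 0 h.

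The 2 transcription factor genes shared little of their course. *ETV4* (chr17:43527844-43579620, minus strand) had 175 and 188 CPM at 0 h and then 138, 131, 161, 102 and 27.1 CPM, where the 0 h mean of 181 ± 8.79 CPM (SD, n = 2) was 6.69 times the value. *ETV5* (chr3:186046314-186110318, minus strand) had 27.1 and 23.8 CPM at 0 h and then 14.9, 33.9, 34.2, 23.8 and 17.8 CPM, and stayed within 1.34 times the 0 h mean on the high side. An exon of *ETV4* overlaps *DHX8* on the opposite strand, which had up to 84.1 CPM. Over the 10 genes the 0 h libraries differed by 0.02 to 0.47 on the log2 scale.

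**Figure D1:**
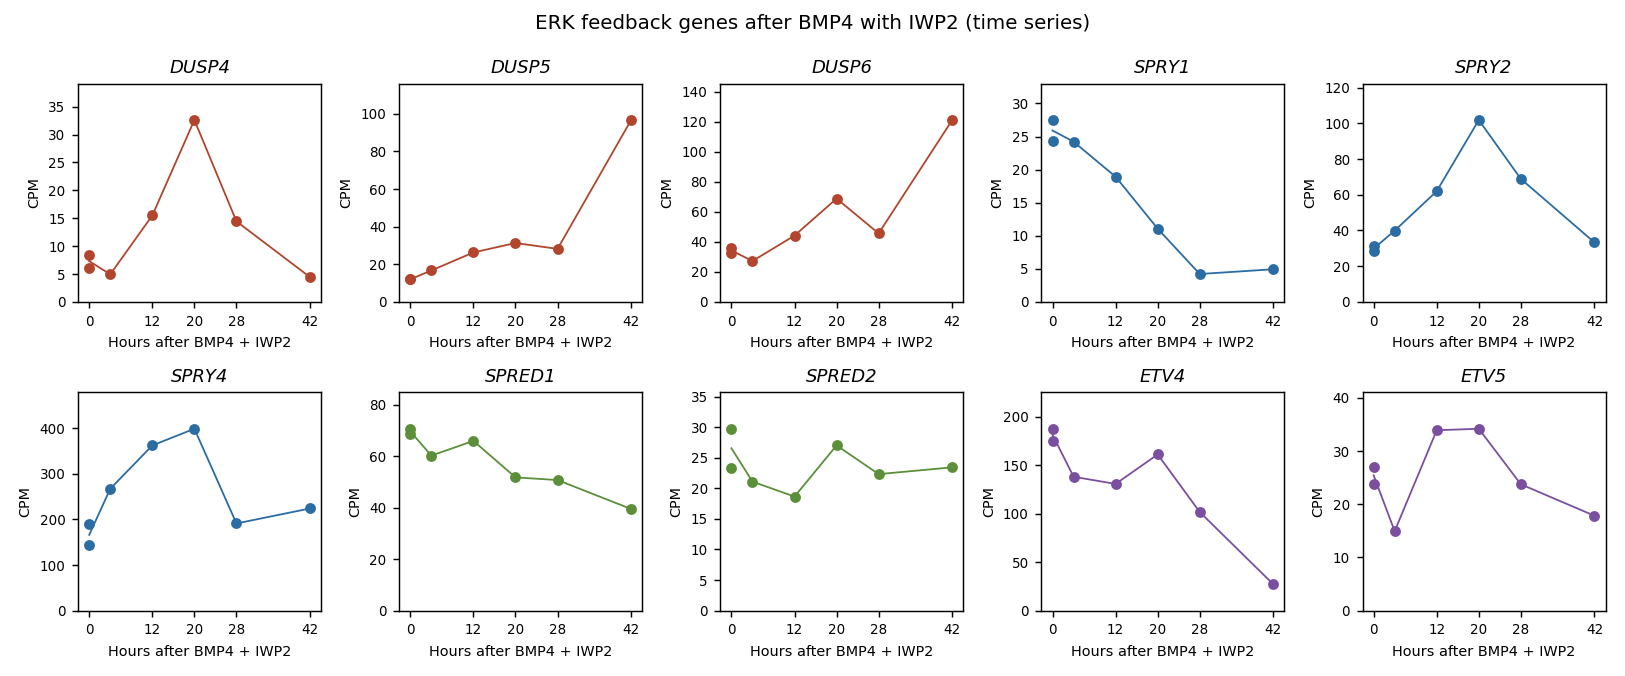
CPM (y axis, linear from 0) against hours after BMP4 with IWP2 (x axis), 1 panel per gene, 1 point per library (2 at 0 h) and a line through the 0 h mean and the single later values. *DUSP4*, *SPRY2* and *SPRY4* peak at 20 h (32.6, 101.9 and 399 CPM), *DUSP5* and *DUSP6* are highest at 42 h (96.7 and 121.3 CPM), and *SPRY1* and *ETV4* end low (4.94 and 27.1 CPM).

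The highest value came at 20 h for 5 of the 10 genes (*DUSP4*, *SPRY2*, *SPRY4*, *SPRED2* and *ETV5*, the 0 h libraries averaged, so that *SPRED2* stood at only 1.02 times 0 h). It came at 42 h for *DUSP5* and *DUSP6* and at 0 h for *SPRY1*, *SPRED1* and *ETV4*. Of the 15976 genes that averaged 1 CPM or more in this experiment, 12.8% were highest at 20 h, 21.6% at 42 h and 24.0% at 0 h.

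Each later time was compared with 0 h by the quasi-likelihood test of edgeR, with TMM scaling and Benjamini-Hochberg adjustment over all 15976 genes. The pair of 0 h libraries gives the only residual degree of freedom and each single later library is assumed to vary like them. The labels do not say that the 0 h libraries come from separate cultures. The estimate of spread is shared over genes, so a p-value hardly rests on the 0 h pair of its own gene. At 12 h the SE was 0.310 for *DUSP5* and 0.304 for *DUSP4*. Their 0 h libraries differed by 0.018 and 0.474 on the log2 scale. The p-values thus reflect the spread between these 0 h libraries pooled over genes, and not a known spread between cultures. At 4 h, 0 of the 10 genes passed an adjusted p of 0.05, against 5.02% of all genes, by edgeR. *ETV5* (log2 difference −0.85, adjusted p = 0.135) and *DUSP4* (−0.65, adjusted p = 0.437) were the 2 under an unadjusted p of 0.05, and DESeq2 called 0 with 1 under that limit.

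At 12 h, 4 of 10 genes passed, all higher, against 9.68% of all genes in either direction. These were *DUSP5* (log2 difference 1.09, SE 0.310, adjusted p = 0.00702), *SPRY4* (1.08, SE 0.327, adjusted p = 0.0130), *DUSP4* (1.04, SE 0.304, adjusted p = 0.00903) and *SPRY2* (1.01, SE 0.318, adjusted p = 0.0183). With DESeq2 *DUSP4* missed the threshold at this time (adjusted p = 0.140, where the 4 alternatives ranged from 0.00591 to 0.140). By 20 h, 5 genes were higher and 1 lower, against 18.5% of all genes. The log2 differences by edgeR were 2.19 for *DUSP4* (SE 0.299, adjusted p = 7.73e-12), 1.81 for *SPRY2* (SE 0.314, adjusted p = 1.80e-07), 1.42 for *DUSP5* (SE 0.308, adjusted p = 5.74e-05), 1.298 for *SPRY4* (SE 0.326, adjusted p = 0.000733), 1.04 for *DUSP6* (SE 0.318, adjusted p = 0.00827) and −1.19 for *SPRY1* (SE 0.327, adjusted p = 0.00251). The median of the 10 genes at 20 h was 0.75, beside −0.01 over all genes tested.

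At 28 h the called set was smaller, with 3 genes higher and 1 lower against 20.3% of all genes. *DUSP5* was higher by 1.299 (adjusted p = 0.000247), *SPRY2* by 1.28 (adjusted p = 0.000485) and *DUSP4* by 1.05 (adjusted p = 0.00405) on the log2 scale, and *SPRY1* was at −2.55 (adjusted p = 2.27e-11). *DUSP4* again missed the threshold with DESeq2 (adjusted p = 0.0632, with 0.00441 the lowest of its alternatives). At 42 h, 4 genes passed, against 37.7% of all genes: *DUSP5* at 3.24 (SE 0.309, adjusted p = 3.89e-24) and *DUSP6* at 2.06 (SE 0.315, adjusted p = 7.82e-10) were higher, and *ETV4* at −2.50 (SE 0.380, adjusted p = 5.73e-10) and *SPRY1* at −2.15 (SE 0.348, adjusted p = 6.84e-09) were lower. The share of the 10 genes called was thus 4 of 10 at 42 h, close to that of all genes, and 6 of 10 at 20 h.

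**Figure D2:**
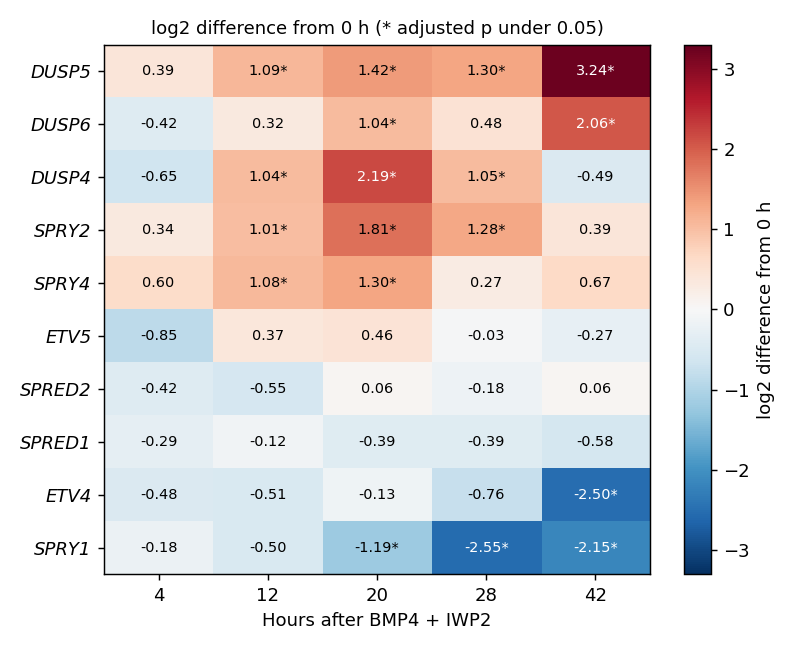
log2 difference from 0 h (color, red higher and blue lower, value printed in each cell) for each gene (rows) at 5 later times (columns), with a star where the edgeR adjusted p was under 0.05. Stars are absent at 4 h, lie mainly on *DUSP4*, *DUSP5*, *SPRY2* and *SPRY4* at 12 h and 20 h, and lie on *DUSP5* (3.24), *DUSP6* (2.06), *ETV4* (−2.50) and *SPRY1* (−2.15) at 42 h.

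On library totals the ratio of 42 h over the 0 h mean exceeded 2.93-fold in either direction, with 0.01 CPM added, for 4 of the 10 genes (log2 ratio of *DUSP5* 3.01, *DUSP6* 1.82, *SPRY1* −2.39 and *ETV4* −2.74), against 16.1% of 13651 genes. The median of all genes in this ratio was −0.20 on library totals and 0.04 with TMM scaling, so a gene at the median reads that much lower at 42 h on library totals than with TMM.

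A straight line in hours was fitted by edgeR to the 7 time-series libraries. The fit called 2 of 10 genes rising, against 19.2% of all genes, and 3 falling, against 17.5%. *DUSP5* rose by 0.070 per hour on the log2 scale (SE 0.0068, adjusted p = 0.000227) and *DUSP6* by 0.048 (SE 0.0078, adjusted p = 0.00263). The slope of *SPRY1* was −0.059 (SE 0.0095, adjusted p = 0.00228), that of *ETV4* −0.043 (SE 0.012, adjusted p = 0.0257) and that of *SPRED1* −0.013 (SE 0.0037, adjusted p = 0.0293). *DUSP4* (0.024, adjusted p = 0.570), *SPRY2* (0.025, adjusted p = 0.281) and *SPRY4* (0.012, adjusted p = 0.479) were not called, nor were *SPRED2* and *ETV5*. All 5 had their highest value at 20 h. The median slope of the 10 genes was 0.0077 per hour, beside −0.00011 over all genes.

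Several of these calls rest on single libraries. Without the 42 h library, the edgeR adjusted p was 0.0715 for *DUSP6* and 0.202 for *ETV4*, each the highest over 12 alternatives (lowest 9.42e-07 and 0.000166), while *SPRY2* (0.00788) and *DUSP4* (0.0486) then passed as rising, their highest being 0.570 and 0.856. *ETV4* also missed it without 0 h replicate 1 (adjusted p = 0.0554) or replicate 2 (adjusted p = 0.0509) and with the times taken in order (adjusted p = 0.0610). *SPRED1* missed it without 0 h replicate 1 (0.0736), 12 h (0.0527), 28 h (0.0712) or 42 h (0.163) and with no filter on low counts (0.177), in a range of adjusted p from 0.00602 to 0.177. *DUSP5* and *SPRY1* were called under all 12 alternatives.

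At 5 h, LDN changed *DUSP6* and *ETV4* in the direction opposite to *SPRY4*. *DUSP6* had 85.8, 98.3, 109.3, 119.0 and 120.3 CPM at 0, 10, 30, 100 and 300 nM LDN, rising at every step to 1.40 times the level without LDN. *ETV4* had 92.4, 103.8, 109.5, 114.5 and 115.9 CPM over the same doses, also in the order of the doses. *SPRY4* had 209.0, 198.1, 187.6, 170.2 and 160.3 CPM and fell at every step to 0.767 times the level without LDN.

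*SPRED1* had 62.1, 58.5, 56.9, 56.7 and 52.7 CPM, also falling at every step. The values of the other genes did not follow the order of the doses. *SPRY2* had 42.6 and 42.9 CPM at 0 and 10 nM and 36.0, 36.5 and 37.0 CPM at 30, 100 and 300 nM. *DUSP5* had 17.4, 19.0, 21.3, 22.3 and 21.0 CPM, and *SPRY1* had 18.9, 20.2, 21.7, 23.7 and 21.4 CPM, both highest at 100 nM. *SPRED2* ranged from 15.1 (no LDN) to 19.0 CPM, *DUSP4* from 10.1 to 11.4 CPM and *ETV5* from 21.7 to 23.1 CPM.

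**Figure D3:**
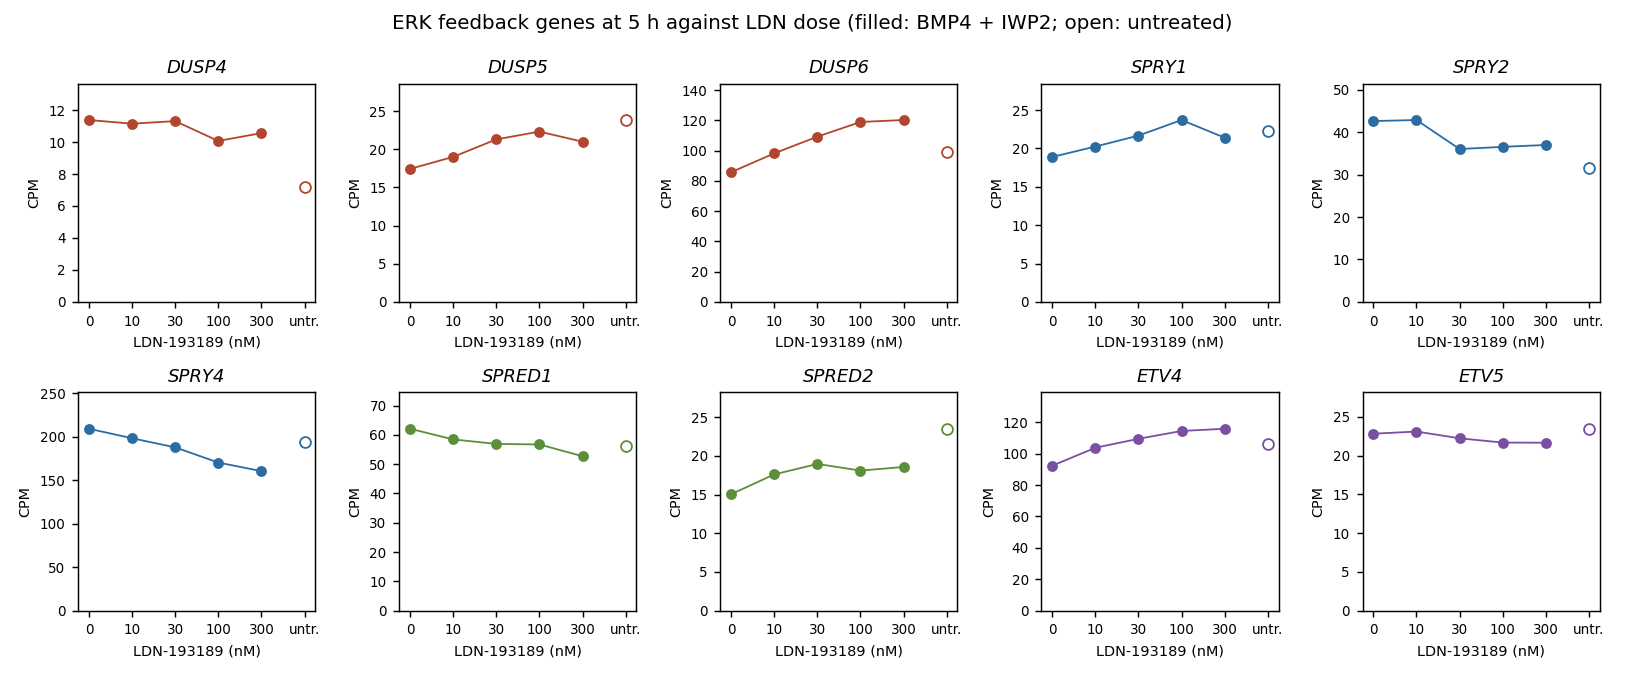
CPM (y axis, linear from 0) at 5 h against LDN dose in nM (x axis, doses evenly spaced), 1 panel per gene and 1 library per point. Filled points had BMP4 with IWP2 and the open point is the untreated library. *DUSP6* and *ETV4* rise with LDN (85.8 to 120.3 and 92.4 to 115.9 CPM) and *SPRY4* falls (209.0 to 160.3 CPM). *SPRED2*, *DUSP5* and, narrowly, *ETV5* (23.46 against at most 23.1 CPM) have their highest value in the untreated library.

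To relate these values to BMP signaling, the 5 libraries with BMP4 were fitted by edgeR against the nuclear SMAD4 level at each LDN dose, on a scale where 0 is none and 1 is the level without LDN. This level had been measured by imaging of the GFP fusion. As each dose is a single library, error was estimated from the scatter about the line. Of the 10 genes, 2 rose with SMAD4, against 10.4% of 14907 genes tested, and 2 fell, against 9.73%. *SPRY4* rose by 0.50 on the log2 scale per unit of SMAD4 level (SE 0.055, adjusted p = 2.78e-05) and *SPRED1* by 0.25 (SE 0.072, adjusted p = 0.0262). The slope of *DUSP6* was −0.65 (SE 0.092, adjusted p = 0.000277) and that of *ETV4* −0.42 (SE 0.079, adjusted p = 0.00249). *DUSP5* (−0.39, adjusted p = 0.0714), *SPRY2* (0.30, adjusted p = 0.0700), *SPRY1* (−0.30, adjusted p = 0.149), *SPRED2* (−0.31, adjusted p = 0.159), *DUSP4* (0.17, adjusted p = 0.467) and *ETV5* (0.11, adjusted p = 0.519) were not called. The median slope of the 10 genes was −0.10 per unit, beside 0.0045 over all genes.

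The calls of *SPRY4*, *DUSP6* and *ETV4* held when any dose was left out. *SPRED1* missed the threshold without 0 nM (adjusted p = 0.110) or 300 nM LDN (0.275) and with DESeq2 (0.104), in a range over 12 alternatives from 0.0196 to 0.474. Without 300 nM LDN, *DUSP5* (slope −0.72, adjusted p = 0.0188) and *SPRY1* (−0.65, adjusted p = 0.0243) passed as falling, their highest being 0.440 and 0.588. *SPRY2* passed as rising without 30 nM LDN (adjusted p = 0.0373, highest 0.205). When the untreated library, which lacks IWP2 as well as BMP4, was added at a SMAD4 level of 0, *SPRY4* (0.14, adjusted p = 0.521), *DUSP6* (−0.33, adjusted p = 0.172) and *ETV4* (−0.27, adjusted p = 0.0964) were no longer called, each at the highest of its alternatives (lowest 4.24e-11, 3.10e-09 and 1.70e-05). *DUSP5* (−0.44, adjusted p = 0.0373) and *SPRED2* (−0.53, adjusted p = 0.0382) were then called as falling, with *SPRED2* reaching 0.826 under another alternative.

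**Figure D4:**
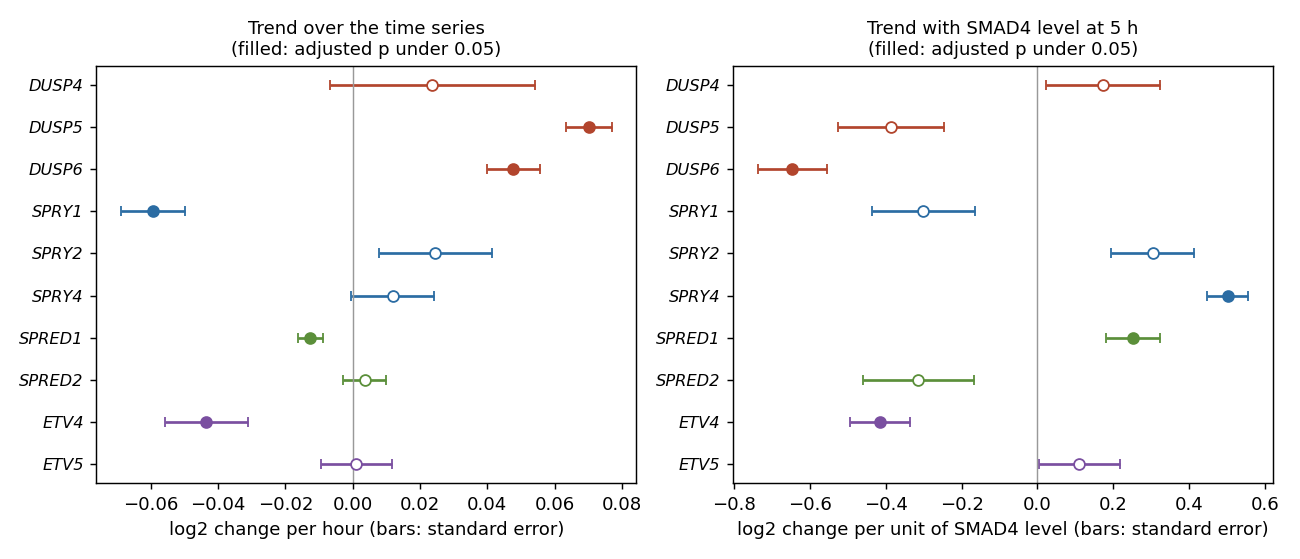
Fitted slopes by edgeR (points, with standard errors as bars) for each gene, per hour over the time series (left) and per unit of SMAD4 level at 5 h (right), on the log2 scale and filled where the adjusted p was under 0.05. *DUSP5* and *DUSP6* lie to the right on the left panel (0.070 and 0.048) and *SPRY1* and *ETV4* to the left, while on the right panel *SPRY4* is at 0.50 and *DUSP6* at −0.65.

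*DUSP6* and *ETV4*, which both fell with SMAD4 level at 5 h, had opposite slopes over the time series. *SPRY1* and *SPRY4*, of the same family, also differed in both experiments. Across the 6 time points (0 h averaged) the log2 CPM of *DUSP5* and *DUSP6* correlated at r = 0.935 and that of *DUSP4* and *SPRY2* at r = 0.928, while *DUSP5* and *SPRED1* correlated at r = −0.912. Over the 6 dose-response libraries *DUSP6* and *ETV4* correlated at r = 0.976 and *DUSP6* and *SPRY4* at r = −0.948. These points share their libraries and are given as a description.

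Cells with BMP4, IWP2 and no LDN were also compared with untreated cells at 5 h. The untreated cells lacked IWP2 as well as BMP4, so the parts of BMP4 and of IWP2 in these ratios cannot be told apart. Each ratio compares 1 library with 1 library, so there is no replicate and no test, and the 95% interval covers counting error only. Without LDN, *DUSP4* was at 11.4 CPM against 7.18 CPM untreated (log2 ratio 0.66, interval 0.35 to 0.99) and *SPRY2* at 42.6 against 31.7 CPM (0.43, interval 0.28 to 0.58), and in both genes all 5 libraries with BMP4 lay above the untreated one. *DUSP5* at 17.4 against 23.8 CPM (−0.45, interval −0.65 to −0.25) and *SPRED2* at 15.1 against 23.5 CPM (−0.64, interval −0.85 to −0.44) lay below it with every dose.

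For *DUSP6* (−0.21, interval −0.30 to −0.12) and *ETV4* (−0.20, interval −0.29 to −0.11) the untreated values of 99.1 and 106.3 CPM fell inside the range of the libraries with BMP4. *SPRY4*, at 193.8 CPM untreated, also lay inside that range, and its log2 ratio of 0.11 (interval 0.05 to 0.17) was 0.02 with TMM scaling. The ratios were 0.14 for *SPRED1*, −0.24 for *SPRY1* and −0.04 for *ETV5*, whose interval of −0.23 to 0.15 holds 0. Over all genes the median of this ratio was 0.11 on library totals and 0.02 with TMM scaling, so *SPRY4* and *SPRED1* (0.05 with TMM scaling) lay near that of a typical gene. The untreated library had the fewest counts and the highest mitochondrial share of its experiment, and the part of these in the ratios was not tested.

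The early response can be set side by side in the 2 experiments, whose times (4 h and 5 h), reference cells and library preparation differ. The log2 ratio of CPM to the reference was 0.42 and 0.43 for *SPRY2* and −0.33 and −0.21 for *DUSP6* at 4 h over 0 h and at 5 h over untreated. In the same order it was 0.685 and 0.11 for *SPRY4* and −0.77 and −0.04 for *ETV5*, both much smaller at 5 h. The ratio was −0.39 and −0.20 for *ETV4*, −0.33 and −0.64 for *SPRED2* and −0.10 and −0.24 for *SPRY1*. It had opposite signs in *DUSP4*, *DUSP5* and *SPRED1*.

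Levels between genes were compared per length, with the FPKM values of the authors. At 0 h *ETV4* led with 111.7 ± 0.177 FPKM, followed by *SPRY4* with 42.9 ± 8.34, *SPRY1* with 21.6 ± 1.87, *DUSP6* with 16.2 ± 1.15, *SPRED1* with 15.0 ± 0.792, *SPRY2* with 14.7 ± 1.03 and *ETV5* with 14.4 ± 2.86 FPKM (SD, n = 2). The neighbors from *DUSP6* to *ETV5* differed by less than the sum of their SDs. *SPRED2* (8.51 ± 1.31), *DUSP5* (5.47 ± 0.0566) and *DUSP4* (1.45 ± 0.290 FPKM) were lowest. By 42 h the order had changed, with *DUSP6* at 64.9, *SPRY4* at 60.6 and *DUSP5* at 43.6 FPKM ahead of *SPRY2* at 16.1 and *ETV4* at 15.3 FPKM, in 1 library.

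Among 19 other ERK feedback and target genes, 4 rose with hours and 4 fell by the same edgeR fit, close to the 19.2% and 17.5% of all genes, and DESeq2 called 7 rising and 6 falling. By edgeR, at 20 h 10 were called higher than at 0 h and 3 lower, against 18.5% of all genes in either direction. The median log2 difference of the 19 genes at 20 h was 1.01, beside −0.01 over all genes tested. *DUSP2*, a nuclear phosphatase of ERK, went from 8.98 and 15.4 CPM at 0 h to 146.7 CPM at 20 h and 246.6 CPM at 42 h (slope 0.13 per hour, SE 0.018, adjusted p = 0.00101). *DUSP8*, another phosphatase gene, went from 2.71 and 2.86 CPM to 29.5 CPM at 28 h and 15.8 CPM at 42 h (slope 0.073, SE 0.025, adjusted p = 0.0492). *ETV1*, the third PEA3 factor, went from 108.1 and 82.9 CPM to 16.7 CPM (slope −0.057, SE 0.0065, adjusted p = 0.000442), a fall shared with *ETV4*. *CCND1*, which encodes cyclin D1, went from 167.7 and 130.7 CPM at 0 h to 257.7 CPM at 4 h and 17.7 CPM at 42 h (slope −0.063, adjusted p = 0.0183). With SMAD4 level 3 of the 19 rose, against 10.4% of all genes, and 2 fell, against 9.73%. *DUSP9*, a cytoplasmic ERK phosphatase, was at 8.28 CPM with no LDN and at 1.57 CPM with 300 nM (3.11 per unit of SMAD4, SE 0.244, adjusted p = 1.53e-06) and was at 0.962 CPM untreated. *MYC* moved the other way, from 55.7 to 101.9 CPM (−1.06 per unit, SE 0.091, adjusted p = 3.42e-06), with 127.8 CPM untreated.

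FGF ligands and receptors changed too. Of 17 listed, 9 passed the limit of 1 CPM in the time series. Of these, 4 fell with hours by edgeR (*FGF8*, *FGF19*, *FGF2* and *FGFRL1*), against 17.5% of all genes. As rising, 0 were called, against 19.2% of all genes, and 0 also at an unadjusted p under 0.05 and with DESeq2. Their median log2 difference at 42 h was −2.21, beside −0.01 over all genes tested, and *FGFR3* was the 1 gene of the 9 called higher than 0 h at that time. *FGF2*, the ligand of the pluripotent state, went from 259.1 and 223.3 CPM at 0 h to 113.9 CPM at 20 h and 19.0 CPM at 42 h (slope −0.072, SE 0.0093, adjusted p = 0.000872). *FGF4* had 1.61 and 1.82 CPM at 0 h, 19.0 at 4 h and 0.0817 CPM at 42 h, and was not called over hours (adjusted p = 0.0803). The receptor gene *FGFR3* had 19.3 and 28.1 CPM at 0 h, 300.8 at 4 h, 232.7 at 20 h and 129.5 CPM at 42 h. With SMAD4 level *FGF4* rose by 2.38 per unit (SE 0.262, adjusted p = 3.21e-05 by edgeR) and *FGFR3* by 1.93 (SE 0.148, adjusted p = 1.28e-06). Of the 8 tested, 3 fell, among them *FGF19* and *FGFRL1*, against 9.73% of all genes. Of 25 genes of the RAS-ERK cascade itself, 6 rose with hours by edgeR, against 19.2% of all genes, and 0 fell, against 17.5%. At an unadjusted p under 0.05, 0 fell by edgeR, while DESeq2 called 0 as falling and had 1 under that limit. *RPS6KA3* (the ERK-activated kinase RSK2) went from 29.2 and 21.0 to 43.4 CPM at 42 h (slope 0.032, adjusted p = 0.0103 by edgeR). *MAPK3* (ERK1) went from 54.2 and 57.2 to 87.2 CPM (slope 0.024, adjusted p = 0.00292).

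**Figure D5:**
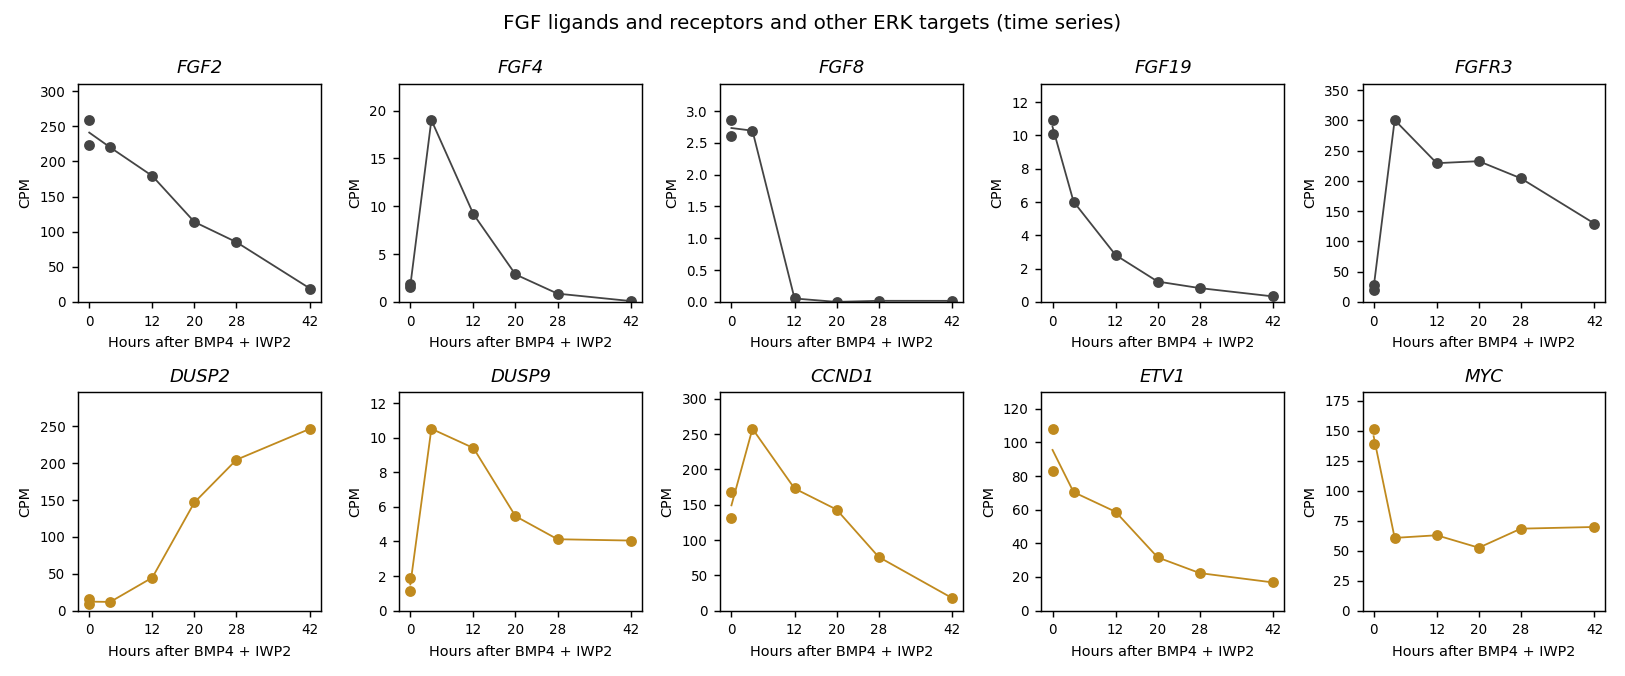
CPM (y axis, linear from 0) against hours after BMP4 with IWP2 (x axis) for 5 FGF ligand or receptor genes (gray) and 5 other ERK target genes (yellow), with 1 point per library. *FGFR3* and *FGF4* are highest at 4 h (300.8 and 19.0 CPM), *FGF2* falls to 19.0 CPM and *DUSP2* climbs to 246.6 CPM at 42 h.

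Genes with a profile most like *DUSP6* were sought among 299 genes that averaged 10 CPM or more and had a log2 range of at least 1 in each experiment, by Pearson's r of log2 CPM over 12 values (6 time points and 6 dose-response libraries, centered within each experiment). *AMOTL2* (r = 0.777), *JDP2* (0.762), *RASSF7* (0.760), *SOCS3* (0.759) and *RHOB* (0.758) came first. In the dose response *DUSP6* (85.8 to 120.3 CPM) and *ETV4* (92.4 to 115.9 CPM) themselves had a smaller range than this limit. Genes with a dose course as small as theirs were thus not searched. For the 5 genes named, r with *DUSP6* ran from 0.826 to 0.911 over the 6 time points. Over the 6 dose-response libraries it ran from −0.654 to 0.163. *RHOB*, for example, had 54.9 CPM with no LDN and 29.4 CPM with 300 nM, where *DUSP6* rose. For *ETV4* the same search gave *MIR302CHG* (r = 0.959), the host transcript of a microRNA cluster of pluripotent cells, *MFSD2A* (0.942), *FOXD3* (0.905), *KIF21B* (0.892) and *MMP16* (0.891). *FOXD3*, a transcription factor of pluripotent cells, fell from 68.8 CPM at 0 h to 0.490 CPM at 42 h. Its r with *ETV4* over the dose-response libraries was 0.956, the highest of these 5 genes. The same r was 0.824 for *KIF21B*, 0.621 for *MFSD2A*, 0.165 for *MIR302CHG* and 0.148 for *MMP16*.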

How the data were processed

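RNA-seq of the GFP::SMAD4 RUES2 line was analysed from gene tables of 7 time-series and 6 dose-response libraries. The authors aligned reads with STAR 2.7.8a and estimated expected counts with RSEM 1.3.3 on GRCh38, and deposited these expected counts, whole as deposited, together with FPKM values. The annotation release and strand handling are not given in the sources used here. Each table holds 61546 features, 5 of them not human, which were counted in library totals and left out of the tests. Groups came from the sample labels. The 10 genes, the related lists and the tests were chosen with earlier results of these data known.

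Printed CPM are counts divided by the library total, times 1000000. Tests used edgeR 4.0.16 in R 4.3.3 (quasi-likelihood F-test, TMM, genes averaging 1 CPM or more, Benjamini-Hochberg adjustment over all genes), with an adjusted p of 0.05 as threshold. The models were hours, each time as a factor, and SMAD4 level over the 5 libraries with BMP4. The SMAD4 level came from source data of the study. Scripts were tested on simulated data. Log2 ratios outside the fits had 0.01 CPM added, and intervals are exact at 95%. The screen of 2.93-fold for 42 h over 0 h kept genes reaching 2.5 CPM. Alternatives were DESeq2 1.42.0, RLE or no scaling, no filter, each library left out, time or dose as order, another SMAD4 measure, the untreated library included, FPKM, and 0.5 CPM added. Named genes were the 10 members, up to 4 of each related list per comparison with the largest changes in each direction, all BMP targets and cell type markers, and the 5 most like *DUSP6* and *ETV4*. Positions are from GENCODE (GRCh38), and upstream sequences from RefSeq.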

Additional observations from a re-analysis of the deposited data

Results flagged for a closer look

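The early change had opposite signs in the 2 experiments for 3 genes. *DUSP4* was at a log2 ratio of −0.56 at 4 h over 0 h in the time series and at 0.66 at 5 h over untreated. *DUSP5* was at 0.47 and −0.45 in the same order, and *SPRED1* at −0.21 and 0.14. The 4 h value lay outside the pair of 0 h libraries in all 10 genes, these 3 included, and the difference between the experiments was not tested. The 4 h library and both libraries at 5 h are single, and the RNA kit, the library preparation and the reference cells differ between the experiments, so these cannot be told apart from time.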

How the results depend on the processing

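No paired analysis was possible because only the 0 h group has more than 1 library, so that the groups compared share fewer than 2 replicate numbers. Of the main counts, 131 values under the alternatives stayed within 1.5 times the main value and 13 did not. None reversed. Over the time series the number of the 10 genes falling with hours, 3 in the main fit, ranged from 1 to 3 when a library was left out, and was 1 without 0 h replicate 1 or without 42 h. All genes called with hours, 5865 in the main fit, numbered 3259 without 42 h and 4316 to 6602 without another library. With SMAD4 level the genes rising, 2 of 10, were 1 with no filter on low counts, 1 with DESeq2, 0 with the untreated library, and 1 to 3 when a dose was left out (1 without 0 nM or 300 nM LDN). Genes falling were 2 to 4 in the same way, with 4 without 300 nM LDN. All genes called with SMAD4 level, 3008 in the main fit, were 1944 without 300 nM and 2001 without 0 nM LDN, the other doses giving up to 2865. DESeq2 called 455 genes at 4 h (802 by edgeR) and 971 at 12 h (1547 by edgeR). For single genes, 480 values stayed, 29 moved, 11 passed the threshold only under the alternative and 20 only in the main fit. Time contrasts without a 0 h replicate were not run, as no residual degree of freedom is left. The precision is set by single libraries at every later time and dose.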

Other observations

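Of the 19 other ERK feedback and target genes, 6 were highest at 20 h in the time series, against 12.8% of all genes tested. The others were highest at 0 h (5 genes), 4 h (3), 12 h (1), 28 h (3) and 42 h (1). *PHLDA1* and *EPHA2* were among the 6 highest at 20 h. *PHLDA1*, which encodes a pleckstrin homology-like protein, went from 81.0 and 78.7 CPM at 0 h to 361.4 CPM at 20 h and 140.3 CPM at 42 h. *EPHA2*, an ephrin receptor gene, had 43.1 and 44.1 CPM at 0 h, 28.0 CPM at 4 h, 85.5 CPM at 20 h and 46.1 CPM at 42 h. At 5 h *EPHA2* increased in the order of the LDN doses, from 18.0 CPM with no LDN to 28.8 CPM with 300 nM, with 36.0 CPM untreated.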
